A study of Mus musculus with 30 samples.

Results

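The genes described here encode 9 secreted proteins of the cardiac matrix: the small leucine-rich proteoglycans Lum (lumican), Dcn (decorin), Bgn (biglycan) and Fmod (fibromodulin), and the matricellular or matrix-bound proteins Ccn2 (connective tissue growth factor), Mgp (matrix Gla protein), Postn (periostin), Sparc (osteonectin) and Smoc2. They were chosen by name. Every probe set of the array that the platform annotation assigns to 1 of these symbols alone was taken, which gave 11 probe sets of 12422 tested and 9 of 8251 named genes. Bgn and Fmod each had 2 probe sets, and the other 7 genes had 1. Expression was measured on 30 Affymetrix MG_U74Av2 arrays of left ventricle from C57BL/6 mice aged 2 months. The mice were male or female, ate a soy-based or a casein-based diet and were wild-type or HCM. HCM commonly stands for hypertrophic cardiomyopathy, a thickening of the ventricular wall, but the labels give neither the full name nor a mutation, transgene or promoter. The male and female soy HCM groups held 3 arrays each and the other 6 groups 4 arrays each. RNA of 2 animals was pooled for each array, so p-values measure the spread between pools.

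Small leucine-rich proteoglycans carry a horseshoe-shaped repeat domain that binds collagen and governs how fibrils assemble, and decorin and biglycan also bind TGF-beta. Matricellular proteins are secreted into the matrix but regulate cells and growth factors rather than form a scaffold, and several of them are made in greater amount after cardiac injury or overload. In the heart most of these proteins come from fibroblasts, with contributions from smooth muscle cells, endothelium and stressed cardiomyocytes.

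Promoter sequence was matched in the RefSeq table of mouse build GRCm38.p6 for 4 of the 9 genes (Fmod, Postn, Sparc and Bgn). The windows of Postn (chr3:54360857-54361106, plus strand), Bgn (chrX:73483351-73483600, plus strand) and Sparc (chr11:55420081-55420330, minus strand) are shown because the levels of Postn and Sparc each varied with that of Bgn between arrays of the same group. Each window holds the 250 bases before a transcription start, 5′ to 3′ on the gene's strand, and capitals mark the only match found to any of the motifs searched in these windows.
Postn: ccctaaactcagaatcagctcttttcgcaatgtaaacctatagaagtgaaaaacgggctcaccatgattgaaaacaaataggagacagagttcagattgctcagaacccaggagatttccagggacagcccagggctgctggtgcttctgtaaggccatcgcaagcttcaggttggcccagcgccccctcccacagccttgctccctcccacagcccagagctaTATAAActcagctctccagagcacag
Bgn: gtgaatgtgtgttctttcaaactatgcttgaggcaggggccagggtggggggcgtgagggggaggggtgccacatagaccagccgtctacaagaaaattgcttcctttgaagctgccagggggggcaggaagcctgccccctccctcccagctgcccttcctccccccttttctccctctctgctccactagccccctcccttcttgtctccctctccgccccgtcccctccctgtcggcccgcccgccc
Sparc: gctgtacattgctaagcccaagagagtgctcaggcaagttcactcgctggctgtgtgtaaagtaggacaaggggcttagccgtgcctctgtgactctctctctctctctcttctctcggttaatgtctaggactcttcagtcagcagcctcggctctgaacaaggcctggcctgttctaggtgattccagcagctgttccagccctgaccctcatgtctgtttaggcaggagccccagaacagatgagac
The motifs were searched on both strands. The TATA box was spelled TATAAA. The site of TEAD factors was spelled GGAATG. The site of AP-1 was spelled TGANTCA, and the SMAD palindrome was spelled GTCTAGAC. No overlap between motifs occurred. In the printed Postn window TATAAA lay 26 to 21 bases before the transcription start. Another window of Postn (chr3:54359017-54359266, plus strand) and the window of Fmod held no match and are not shown. Of the 32851 windows of the same length in the table, 12.4% held the TATA box, 12.6% the TEAD site, 6.75% the AP-1 site and 0.167% the SMAD palindrome, so the single match is a description of these letters only.

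Values are log2 expression as deposited, so a difference of 1 is a doubling. Array medians lay between 6.11 and 6.22, and correlations between arrays between 0.93 and 0.997. The bacterial Dap control RNA, as the mean of its probe sets, read 7.18 to 8.07 on the 8 casein HCM arrays and 4.03 to 4.7 on the other 22. The hybridization control BioD minus BioC lay at 1.62 to 1.82 on the soy HCM arrays and 0.99 to 1.39 on the soy wild-type arrays. Each combination of diet and genotype is therefore treated as a set of arrays, and for every genotype or diet effect the array set cannot be told apart from genotype or diet. Every set held males and females equally. Casein wild-type arrays also differed among themselves, with 13.5% of all probe sets passing between replicates 1 and 2 (set A) and replicates 3 and 4 (set B). Of the 11 probe sets described here, 1 passed there, 161373_r_at of Fmod, which was higher in set A, as were 8.76% of all probe sets (4.77% were lower).

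HCM and wild-type ventricles were first compared within each diet, as the mean of both sexes. On casein, 8 of the 11 probe sets passed the limma test (Benjamini-Hochberg adjusted p under 0.05 over all 12422 probe sets), 7 higher and 1 lower in HCM, and they belonged to 7 genes. Ccn2, Mgp, Postn, Lum, Dcn and Bgn rose, with log2 changes from 0.42 to 1.71. On soy 2 probe sets passed, of Sparc and Fmod, both higher in HCM. Of all probe sets 49% passed on casein (25% higher, 24% lower) and 24.7% on soy (12.3% in each direction). The members' count on soy lay near that background. The median log2 change of the 11 probe sets was 0.42 on casein against 0 for all probe sets, and 0.05 on soy against -0.01. Because whole ventricle was measured, more RNA per cell and more cells of a type that makes these proteins cannot be told apart.

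**Figure D1:**
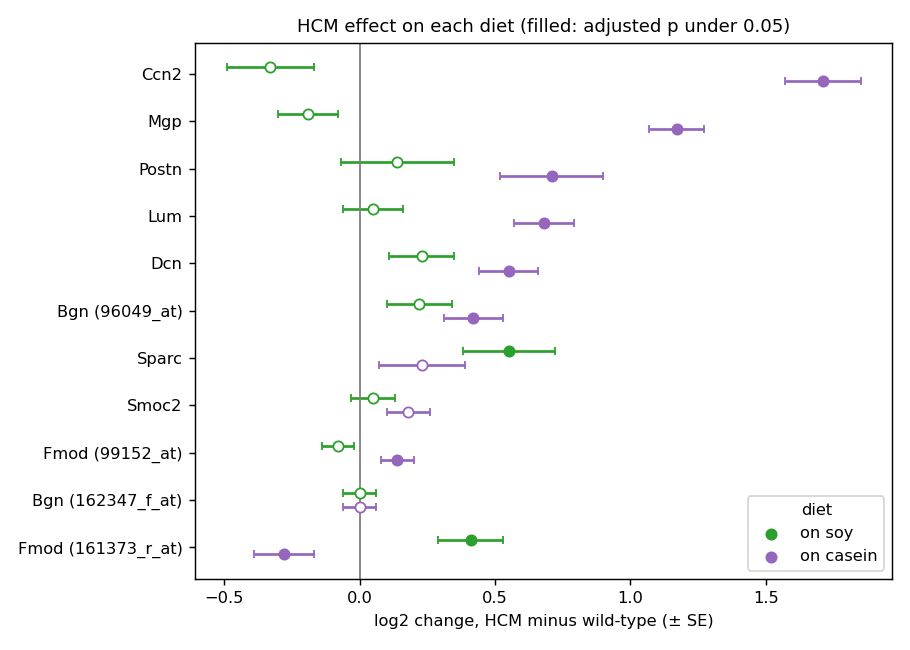
HCM effect on each diet for the 11 probe sets, with the log2 change from wild-type to HCM on the horizontal axis, bars showing the standard error, and filled symbols marking an adjusted p under 0.05 in limma. Ccn2 (1.71) and Mgp (1.17) on casein lie farthest to the right, while on soy both lie left of 0 without passing.

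Lum, a keratan sulphate proteoglycan that spaces collagen fibrils, rose in HCM on casein. There its log2 level ran from 6.87 to 8.23 (median 7.63) in the 8 wild-type arrays and from 7.79 to 8.95 (median 8.18) in the 8 HCM arrays. These ranges overlapped because the sexes differed, but within each sex every HCM array lay above every wild-type array. In males the wild-type arrays read 7.09, 6.87, 7.42 and 7.41 and the HCM arrays 7.79, 8.08, 8.0 and 8.04. In females the wild-type arrays read 8.11, 7.85, 8.13 and 8.23 and the HCM arrays 8.79, 8.95, 8.62 and 8.28. Both sexes thus moved upward, by 0.78 ± 0.15 (SE) in males and 0.58 ± 0.15 in females, and by 0.68 ± 0.11 together (adjusted p = 6.02e-06). On soy the wild-type range of 7.39 to 8.61 (median 8.05) enclosed the HCM range of 7.66 to 8.49 (median 8.08). The effect there was 0.05 ± 0.11 (adjusted p = 0.788), and the effect on casein exceeded that on soy by 0.63 ± 0.16 (adjusted p = 0.00161, or 0.0503 in a fit with a random block for array set). Lum also fell by 0.40 ± 0.11 from soy to casein in wild-type mice (adjusted p = 0.00268), so the larger HCM effect on casein started from a lower wild-type level; this diet effect did not pass with the random block (adjusted p = 0.0549) or against casein wild-type replicates 3 and 4 only (-0.24, adjusted p = 0.103).

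Dcn, the decorin gene, whose protein binds collagen and sequesters TGF-beta, rose on casein by 0.55 ± 0.11 (adjusted p = 0.000129). The casein wild-type arrays ran from 10.84 to 11.44 (median 10.97) and the HCM arrays from 11.13 to 11.93 (median 11.58). Female wild-type arrays, at 10.84, 10.84, 10.87 and 11.02, lay below every female HCM array (11.93, 11.59, 11.55 and 11.13), while the male groups overlapped. On soy Dcn ran from 10.91 to 11.56 (median 11.29) in wild-type and from 11.03 to 11.62 (median 11.55) in HCM. Its effect on soy was 0.23 ± 0.12 (adjusted p = 0.145), and the difference between the diets was 0.32 (95% interval -0.01 to 0.64), which did not pass (adjusted p = 0.103). Without male soy HCM replicate 1, the lowest of its group, the soy effect was 0.32 (adjusted p = 0.0482). It passed in only 1 of 41 alternative fits.

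Bgn, the biglycan gene on the X chromosome, gave different answers from its 2 probe sets. Probe set 96049_at ran from 9.76 to 10.39 (median 10.23) in casein wild-type and from 10.16 to 11.01 (median 10.57) in casein HCM arrays, a rise of 0.42 ± 0.11 (adjusted p = 0.0017). In males on casein, HCM arrays at 10.39, 10.63, 10.16 and 10.52 all lay above wild-type arrays at 9.76, 9.85, 10.06 and 10.13. In females the groups overlapped because HCM replicate 4 read 10.18 while the other 3 read 10.92, 11.01 and 10.79. On soy the same probe set changed by 0.22 ± 0.12 (adjusted p = 0.164). Probe set 162347_f_at changed by 0.00 ± 0.06 on soy (adjusted p = 0.973) and 0.00 ± 0.06 on casein (adjusted p = 0.966). The f in its name marks a probe set whose probes are shared with other transcripts, so its level may not be that of Bgn alone.

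Fmod, the fibromodulin gene, whose protein binds collagen and aids its cross-linking, also had discordant probe sets. Probe set 161373_r_at rose on soy by 0.41 ± 0.12 (adjusted p = 0.0115) and fell on casein by 0.28 ± 0.11 on the log2 scale (adjusted p = 0.032). On soy it read 5.94 to 6.32 (median 6.14) in wild-type and 6.32 to 6.76 (median 6.58) in HCM arrays, so the ranges met at 6.32. On casein it read 6.96 to 7.83 (median 7.32) in wild-type and 6.84 to 7.59 (median 7.06) in HCM arrays, with wide overlap. Its fall on casein rested on the wild-type arrays of set A, which read 7.42 to 7.83 against 6.96 to 7.23 in set B, a difference of 0.53 ± 0.11 (adjusted p = 0.00315). With set B alone as the wild-type group the change was -0.02 (adjusted p = 0.907). Probe set 99152_at changed by -0.08 ± 0.06 on soy (adjusted p = 0.376) and rose by 0.14 ± 0.06 on casein (adjusted p = 0.0409), where wild-type arrays ran from 6.34 to 6.61 and HCM arrays from 6.45 to 6.84. With set A alone as the wild-type group it was at 0.09 (adjusted p = 0.311). With a random block for array set neither probe set passed on either diet; for 161373_r_at the adjusted p was 0.181 on soy and 0.154 on casein, and for 99152_at it was 0.223 on casein.

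**Figure D2:**
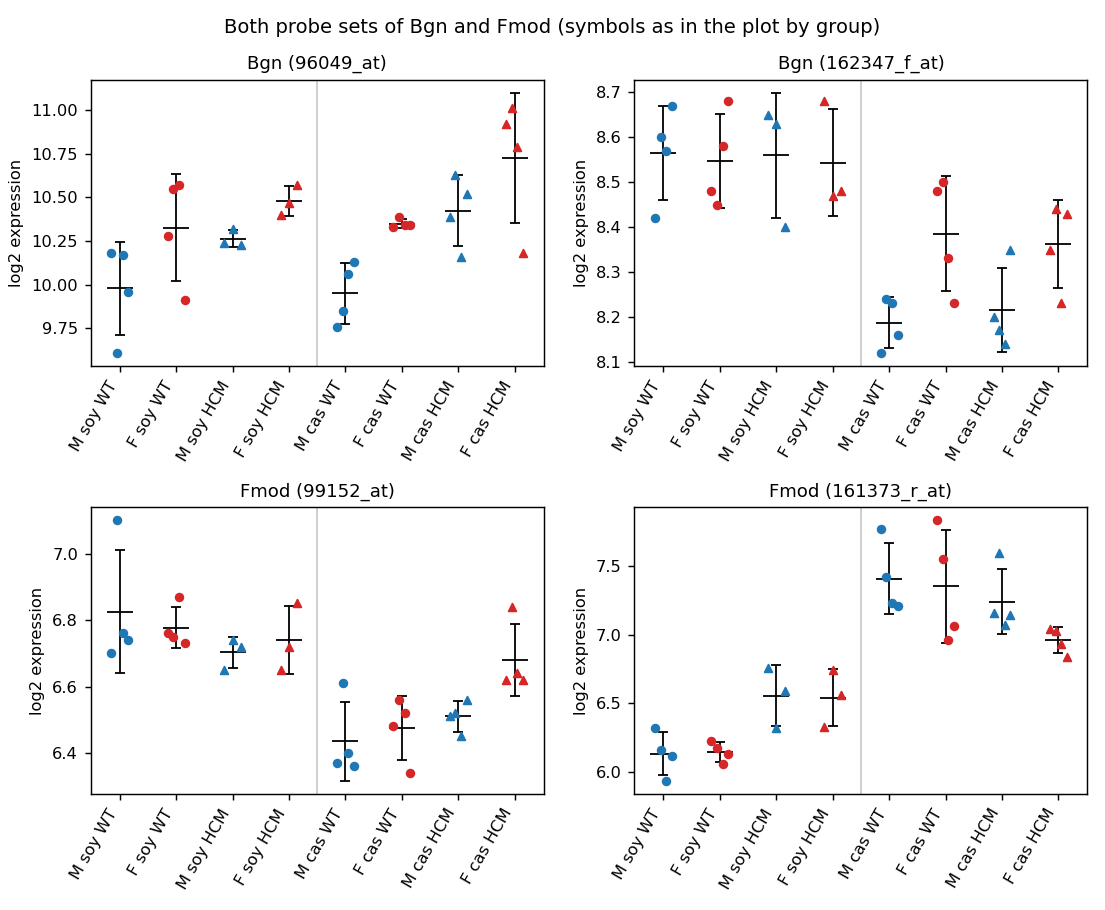
Log2 expression of both probe sets of Bgn and of Fmod on every array, by group (M male, F female, cas casein, WT wild-type; circles wild-type, triangles HCM; blue males, red females; bars mean and SD). Bgn 96049_at is higher in casein HCM than in casein wild-type while 162347_f_at is not, and Fmod 161373_r_at is higher on casein in both genotypes while 99152_at is lower there in wild-type.

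Ccn2, a secreted CTGF family protein that TGF-beta and stretch induce in the heart, had the largest HCM effect of the 9 genes and the largest difference between the diets. On casein the male wild-type arrays read 6.58, 5.91, 6.31 and 6.6 and the male HCM arrays 7.51, 8.3, 8.1 and 7.91. The female wild-type arrays read 6.43, 6.63, 6.21 and 6.34 and the female HCM arrays 8.13, 8.58, 8.25 and 7.92. In both sexes the HCM arrays stood apart from the wild-type arrays by more than the whole range of the wild-type arrays. The rise was 1.71 ± 0.14, a fold of 3.27 (adjusted p = 2.39e-10), with 1.60 ± 0.20 in males and 1.81 ± 0.20 in females. On soy Ccn2 ran from 6.48 to 8.06 (median 7.51) in wild-type and from 6.86 to 7.33 (median 7.12) in HCM arrays. All 3 female soy HCM arrays (7.33, 7.09 and 7.15) lay below all 4 female soy wild-type arrays (7.48, 8.06, 7.49 and 7.78), but the males overlapped. The soy effect was -0.33 ± 0.16 and did not pass (adjusted p = 0.118). Male soy wild-type replicate 2, at 6.48, was the lowest of its group (mean 7.20, SD 0.54), and without it the soy effect was -0.45 (adjusted p = 0.0151). The soy effect passed in only 1 of 41 alternative fits. The HCM effect on casein exceeded that on soy by 2.04 ± 0.21 (adjusted p = 1.87e-08).

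Mgp, a vitamin K-dependent inhibitor of calcification made by vascular smooth muscle and fibroblasts, followed Ccn2. Its only probe set was 93866_s_at, and whether those probes are shared with other transcripts was not checked. On casein the male wild-type arrays read 8.75, 8.6, 8.95 and 8.9 and the HCM arrays 9.93, 10.1, 9.68 and 10.01. The female wild-type arrays read 9.1, 9.1, 9.0 and 9.3 and the HCM arrays 10.4, 10.73, 10.19 and 10.02. No HCM array of either sex reached down to the highest wild-type array. The rise was 1.17 ± 0.10, a fold of 2.25 (adjusted p = 6.49e-10). On soy the effect was -0.19 ± 0.11 (adjusted p = 0.227), with wild-type arrays from 8.54 to 9.79 and HCM arrays from 8.55 to 9.27. The difference between diets was 1.36 ± 0.15 (adjusted p = 7.51e-08). On casein Lum, Mgp and Ccn2 were the 3 members whose HCM arrays lay above the wild-type arrays in both sexes, which held for 10.1% of all probe sets. On soy no member did so, against 6.13% of all probe sets. A change of at least 1 in size with an adjusted p under 0.05, as Ccn2 and Mgp had on casein, occurred in 0.781% of all probe sets there and in 0.185% on soy.

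**Figure D3:**
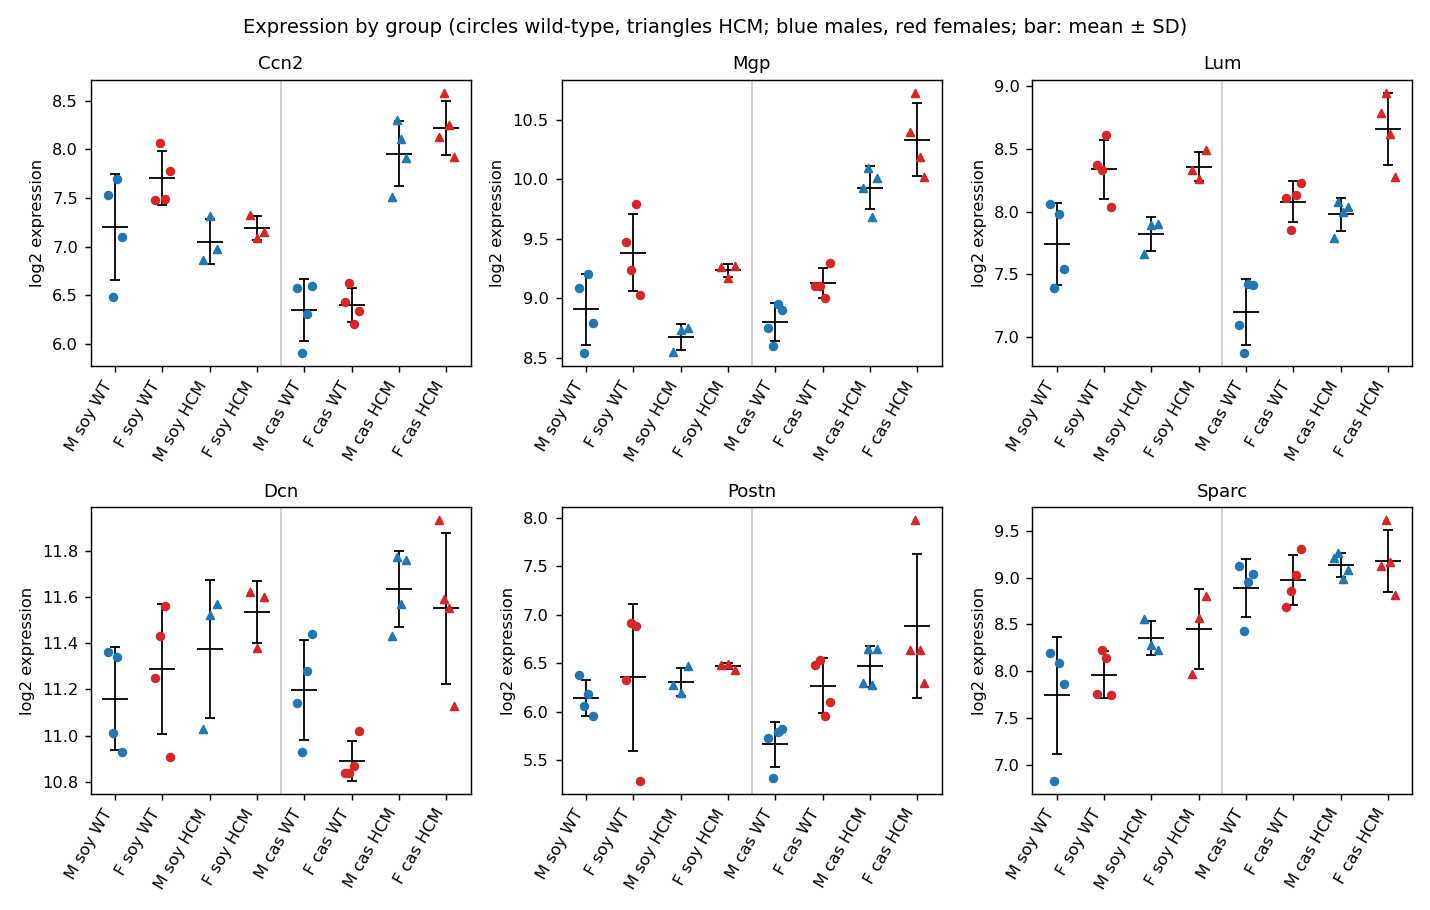
Log2 expression of 6 genes on every array, by sex, diet and genotype (M male, F female, cas casein, WT wild-type; circles wild-type, triangles HCM; blue males, red females; bars mean and SD). Ccn2 and Mgp are highest in both casein HCM groups, Lum is higher in females than in males of each diet and genotype, and Sparc is higher on casein than on soy.

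Postn, a matricellular protein of activated fibroblasts that aids collagen cross-linking, rose on casein by 0.71 ± 0.19 (adjusted p = 0.00341). Wild-type arrays ran from 5.32 to 6.53 (median 5.89) and HCM arrays from 6.27 to 7.97 (median 6.63). Male HCM arrays (6.29, 6.65, 6.27 and 6.65) all lay above male wild-type arrays (5.73, 5.32, 5.79 and 5.82). Among females HCM replicate 2 read 7.97 and the other 3 read 6.63, 6.63 and 6.3, within or just above the wild-type values of 6.48, 6.53, 5.96 and 6.1. With a random block for array set the rise did not pass (adjusted p = 0.0712). On soy the change was 0.14 ± 0.21 (adjusted p = 0.642), and the difference between the diets was 0.56 (adjusted p = 0.107). Female soy wild-type replicate 4 read 5.29, against 6.33 to 6.91 for the rest of its group, and without it the difference between the diets was 0.74 (adjusted p = 0.0128). That difference passed in only 1 of 39 alternative fits.

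Sparc, a collagen-binding counter-adhesive protein, moved on the other diet. On soy it ran from 6.83 to 8.22 (median 7.98) in wild-type and from 7.97 to 8.8 (median 8.42) in HCM arrays, a rise of 0.55 ± 0.17 (adjusted p = 0.0208). All 3 male HCM arrays (8.56, 8.28 and 8.22) lay above the 4 male wild-type arrays (8.19, 6.83, 8.09 and 7.86), and the females overlapped. The rise did not pass with a random block for array set (adjusted p = 0.285), when only the soy groups were fitted (0.0619), without male soy HCM replicate 1 (0.05) or without female soy HCM replicate 3 (0.0752). On casein the change was 0.23 ± 0.16 (adjusted p = 0.237). The difference between the diets was -0.32 (adjusted p = 0.274), so a change particular to soy was not shown.

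Smoc2, a calcium-binding relative of Sparc, changed by 0.05 ± 0.08 on soy (adjusted p = 0.682) and 0.18 ± 0.08 on casein (adjusted p = 0.0512). Its values on casein ran from 6.85 to 7.43 in wild-type and from 6.97 to 7.58 in HCM arrays, with overlap in both sexes. The casein value passed without male soy wild-type replicate 2 (adjusted p = 0.0153) and in 8 of the other 39 alternative fits.

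The difference of the HCM effect between the diets passed for 5 of the 11 probe sets, 4 higher and 1 lower, against 45.2% of all probe sets (23.9% higher and 21.3% lower). The 5 were Ccn2, Mgp, Lum and both probe sets of Fmod (-0.69 ± 0.16 for 161373_r_at, adjusted p = 0.00083, and 0.22 ± 0.08 for 99152_at, adjusted p = 0.0351). The value of 161373_r_at was -0.43 with casein wild-type set B alone (adjusted p = 0.00848). That of 99152_at passed in 26 of 38 alternative fits. It did not pass with a random block for array set (adjusted p = 0.231), with quantile normalization added (0.0986) or with casein wild-type set A alone (0.155). It was also lost, at adjusted p of 0.051 to 0.0725, without any 1 of 9 arrays: female soy HCM replicate 1 or 2, male soy HCM replicate 1, female soy wild-type replicate 3, female casein HCM replicate 2, male casein HCM replicate 4, male casein wild-type replicate 1 or 4, or female casein wild-type replicate 4. The count lay near the background. The median difference was 0.22 for the members against 0.02 for all probe sets. The 2 HCM effects come from separate arrays, but the casein effect contains the set of arrays with the high Dap control. Without the casein HCM arrays the HCM effect on soy again passed for 2 of the 11 probe sets. Leaving them out changes only the shared spread and not the soy estimates, so it does not bear on the casein effect. With only the soy groups fitted, 1 passed.

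Diet itself was compared next, casein against soy, in wild-type and in HCM mice. In wild-type mice 6 of the 11 probe sets passed, 2 higher and 4 lower on casein, against 46% of all probe sets (20.3% higher and 25.6% lower). In HCM mice 5 passed, 4 higher and 1 lower, against 61.1% of all probe sets (29.8% higher and 31.3% lower). Of all probe sets that passed in wild-type, 44.2% were higher on casein, or 63.1% once arrays were centred on their medians, and the members then again split into 2 higher and 4 lower. With quantile normalization added 9 members passed in wild-type, 2 higher and 7 lower on casein; Dcn (-0.48, adjusted p = 0.000187), Mgp (-0.34, adjusted p = 0.00461) and Bgn 96049_at (-0.26, adjusted p = 0.0185) were then called lower. Ccn2 went in opposite directions: it fell by 1.08 ± 0.14 in wild-type (adjusted p = 9.09e-07) and rose by 0.97 ± 0.16 in HCM (adjusted p = 5.85e-06). Wild-type medians were 7.51 on soy and 6.39 on casein, and HCM medians 7.12 on soy and 8.11 on casein. On the values as deposited Mgp was at -0.18 ± 0.10 in wild-type (adjusted p = 0.156) and rose by 1.18 ± 0.11 in HCM (adjusted p = 8.3e-10). Sparc rose from soy to casein in both genotypes, with changes of 1.07 ± 0.16 in wild-type (adjusted p = 3.12e-06) and 0.76 ± 0.17 in HCM (adjusted p = 0.000377). No casein array of Sparc, of which the lowest read 8.43, fell below the soy wild-type maximum of 8.22, and the soy HCM arrays (7.97 to 8.8) lay between and overlapped both. For Fmod 161373_r_at the change was 1.24 ± 0.11 in wild-type (adjusted p = 5.28e-10) and 0.55 ± 0.12 in HCM (adjusted p = 0.000183), whereas Fmod 99152_at fell by 0.34 ± 0.06 in wild-type (adjusted p = 1.57e-05). Bgn 162347_f_at fell by 0.27 ± 0.06 in wild-type (adjusted p = 0.000243) and 0.26 ± 0.06 in HCM (adjusted p = 0.000439), and Bgn 96049_at was at -0.01 and 0.20 and did not pass on the values as deposited. The effects in wild-type and HCM come from separate arrays, but each shares its wild-type or HCM arrays with the HCM effects above.

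Ordered by group mean, Ccn2 was highest in female casein HCM (8.22 ± 0.28, SD, n = 4) and male casein HCM (7.95 ± 0.34, SD, n = 4). Female soy wild-type (7.70 ± 0.28) and male soy wild-type (7.20 ± 0.54) followed, then female soy HCM (7.19 ± 0.12, n = 3) and male soy HCM (7.05 ± 0.23, n = 3). Lowest were female casein wild-type (6.40 ± 0.18) and male casein wild-type (6.35 ± 0.32). Neighbours in this order overlapped except between male soy HCM and female casein wild-type. For Mgp the order ran from female casein HCM (10.34 ± 0.31) and male casein HCM (9.93 ± 0.18) to male soy HCM (8.68 ± 0.11), with overlap between all neighbours. For Lum it ran from female casein HCM (8.66 ± 0.29) to male casein wild-type (7.20 ± 0.27), with the 4 female groups above the 4 male groups and every pair of neighbours overlapping.

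The sex comparison asked whether female and male ventricles differed. Lum, Mgp and Smoc2 were higher in females than in males, as the mean of the 4 combinations of diet and genotype. These 3 of 11 probe sets passed, against 0.233% of all probe sets (29 of 12422; 0.153% higher and 0.0805% lower in females). The medians were 0.24 for the members and 0 for all probe sets. Since each set of arrays held both sexes equally, a difference between sets does not enter this comparison.

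Lum ran from 6.87 to 8.08 (median 7.79) in the 15 male arrays and from 7.85 to 8.95 (median 8.33) in the 15 female arrays. The difference was 0.68 ± 0.08, a fold of 1.6 (adjusted p = 4.14e-06), with 0.59 in soy wild-type, 0.55 in soy HCM, 0.88 in casein wild-type and 0.68 in casein HCM. In 3 of the 4 combinations every female array lay above every male array, the exception being soy wild-type, where female replicate 4 read 8.04 and male replicate 1 read 8.06. Smoc2 ran from 6.67 to 7.37 (median 7.15) in males and from 7.3 to 7.66 (median 7.42) in females, a difference of 0.33 ± 0.06 (adjusted p = 0.00334). The 15 male and 15 female arrays of Smoc2 overlapped only between 7.3 and 7.37. Mgp was higher in females by 0.44 ± 0.08 (adjusted p = 0.00361), with 0.32 to 0.56 in the 4 combinations and no overlap in 2 of them. Smoc2 did not overlap in 3 of the 4 combinations, and Bgn 96049_at, which did not pass by sex, in 2. Separation in all 4 combinations was found for no member and for 0.0161% of all probe sets. The shares of all probe sets separated in 3 or 2 combinations were not counted.

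The remaining members did not pass by sex. Bgn 96049_at, whose gene is X-linked, was at 0.32 ± 0.08 (adjusted p = 0.109) and passed without female casein HCM replicate 4 (adjusted p = 0.0073), without female soy wild-type replicate 4 (0.0264) and with quantile normalization added (0.0464). Postn was at 0.35 ± 0.14 (adjusted p = 0.495) and Ccn2 at 0.24 ± 0.11 (adjusted p = 0.512). Dcn, at -0.02 ± 0.08 (95% interval -0.19 to 0.14; adjusted p = 0.936), was higher in females in the soy groups and lower in the casein groups.

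**Figure D4:**
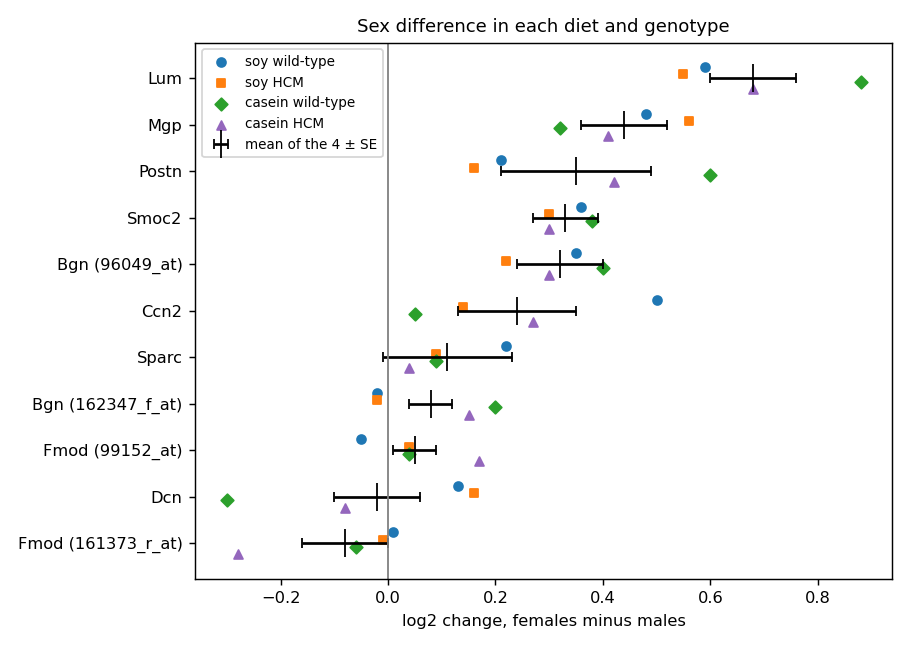
Difference between females and males in each combination of diet and genotype (coloured symbols) and its mean with the standard error (black), in log2 units with positive values higher in females. All 4 symbols of Lum (0.55 to 0.88), Mgp, Smoc2, Postn and Bgn 96049_at lie right of 0, and those of Dcn lie on both sides.

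Of the 29 probe sets that differed by sex, 8 belonged to genes on the X or Y chromosome, 19 to 18 autosomal genes, and 2 had no name. Among the 12 autosomal probe sets higher in females, 3 were Lum, Mgp and Smoc2 and 5 were of genes on the matrix or fibroblast lists used here: Mfap5 (0.50), Col6a3 (0.31), Fbln1 (0.30), Col6a1 (0.27) and Col5a1 (0.17). The other 4 were of Dynll1, Itih5, Islr and Golim4. Lower in females were 7 autosomal probe sets, none of a gene on those lists. They were of Cpxm2 (-0.69 and -0.39), Penk (-0.52), Dpep1 (-0.43), Inmt (-0.42), Hsd11b1 (-0.4) and Tcea3 (-0.26). For Mfap5 and Fbln1 the brighter probe set of the gene did not pass (0.11 and 0.16). These genes were picked out by passing the test, and their number was not tested. Of the 17 fibroblast and epicardium markers other than the members, represented by the brightest probe set of each gene, none passed by sex, with a median of 0.11.

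The HCM effect did not differ detectably between the sexes. None of the 11 probe sets passed in limma, as none of all 12422 did (0%); at an unadjusted p under 0.05 the counts were 0 members and 503 probe sets. The difference, females minus males, was -0.07 for Ccn2 (95% interval -0.51 to 0.36), 0.08 for Mgp (-0.23 to 0.39) and -0.12 for Lum (-0.44 to 0.20), so differences of that size in either direction are not excluded by these intervals.

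Beyond the group means, some of the members varied together from array to array. After subtracting each group's mean, the 6 pairs among Lum, Dcn, Bgn 96049_at and Mgp correlated at r = 0.71 to 0.85 over the 30 arrays, against a median of 0.27 over all 55 pairs of member probe sets. These 4 were picked out after their values were seen, and the 55 pairs include their 6. The same median for pairs of other genes was not computed. Dcn also reached 0.73 with Arf4 and 0.72 with Tm9sf2, which are not members. Postn correlated with Bgn 96049_at at 0.71 and Sparc with Bgn 96049_at at 0.66, the genes whose promoter windows are printed above. The 2 probe sets of Bgn correlated at -0.21 and those of Fmod at 0.09, and neither 162347_f_at, 99152_at nor 161373_r_at followed the other members. The points share the array, its RNA pool and its normalization, and the correlations are descriptions. Single arrays moved many members at once: female casein HCM replicate 4 was the lowest of its group for 8 of 11 probe sets and replicate 2 the highest for 8, male casein HCM replicate 2 was the highest for 9, and male soy wild-type replicate 2 was the lowest for 6. Without this last array the 6 correlations again ran from 0.71 to 0.85, but other pairs moved in either direction. Postn with Bgn 96049_at was then at 0.75 and Sparc with Bgn 96049_at at 0.58. Smoc2 with Sparc went from 0.42 to 0.02, Ccn2 with Sparc from 0.57 to 0.33, and Fmod 99152_at with Smoc2 from -0.24 to 0.26.

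**Figure D5:**
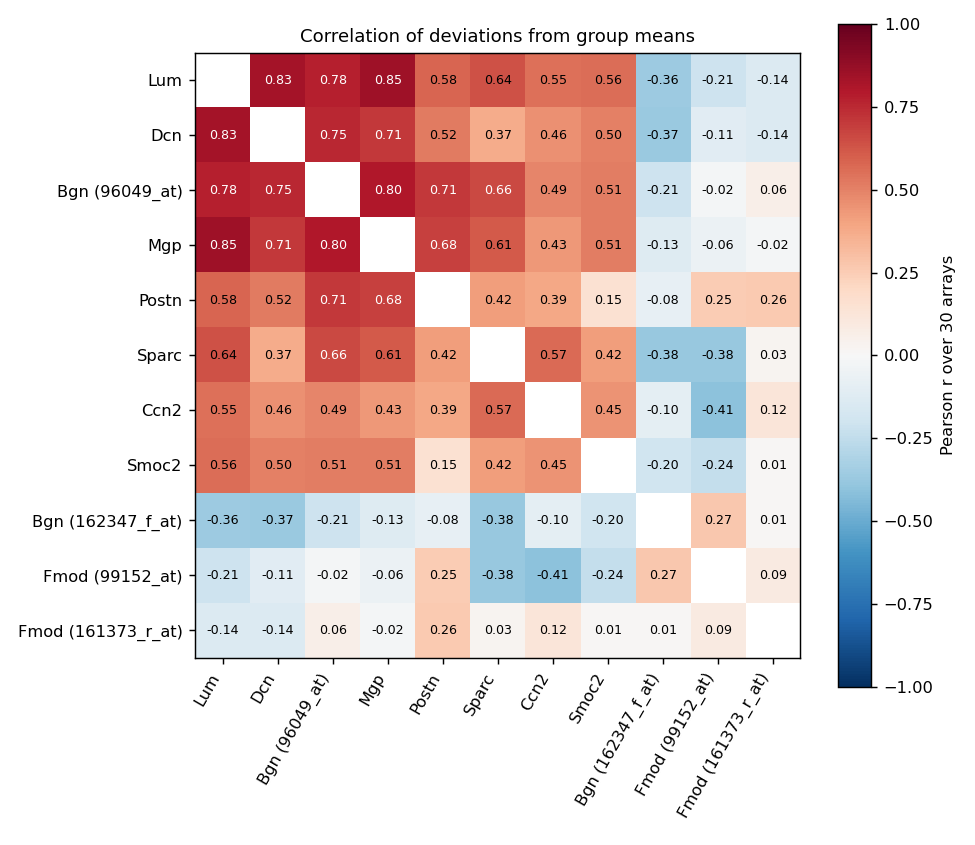
Pearson correlation between member probe sets of the deviations from group means over the 30 arrays (colour and number; blank on the diagonal). The upper left block of Lum, Dcn, Bgn 96049_at and Mgp holds values from 0.71 to 0.85, and the rows of Bgn 162347_f_at and both Fmod probe sets are pale or blue.

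The 3 genes most like each member were taken by Pearson correlation of log2 values over the 30 arrays, so they share group differences as well as array differences. Lum was most like Mfap5 (r = 0.88), Emp1 (0.86) and Cxcl12 (0.85), and Bgn 96049_at most like Emp1 (0.88), Col3a1 (0.86) and Fstl1 (0.84). The match to Col3a1 is through a probe set ending in _f_at, not the brightest probe set of that gene, which fell by 0.29 on casein. Dcn was most like Arf4 (0.86), Ankrd1 (0.84) and Tm9sf2 (0.83), and Mgp most like Gpx3 (0.93), the mouse gene Dap (0.92), which is not the bacterial control, and Pmp22 (0.90). Postn was most like Pqlc3 (0.79), Fstl1 (0.77) and Klf6 (0.77), and Smoc2 most like the X-linked Eif2s3x (0.81), Mfap5 (0.77) and Tceal9 (0.73). Ccn2 was most like Rnaseh2b, Serf2 and Mrpl50 (0.90 each), and Sparc most like Trp53inp2 (0.93), Eef2 (0.92) and Pcbp2 (0.92). The genes most like Fmod 161373_r_at were Sf1 (0.97), Pigk (0.97) and Sec14l2 (0.95), each through a probe set whose name also ends in _r_at, which marks probe sets designed with relaxed selection rules. For Fmod 99152_at they were Ramp3 (0.83), Siah1-ps1 (0.83) and Gclc (0.82), and for Bgn 162347_f_at Syngr4 (0.91), Snrpb2 (0.90) and Enpep (0.90).

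Other matrix genes were then counted by list. Each gene of these lists is represented by its brightest probe set, and lists are described by counts in limma beside the shares of all probe sets given above. Of 5 other small leucine-rich proteoglycans measured, none passed on soy, while on casein Ogn (osteoglycin) rose by 0.71 ± 0.09 (adjusted p = 3.92e-07) and Kera (keratocan) fell by 0.27 ± 0.06 (adjusted p = 0.000274). Of 17 other matricellular genes, 1 rose and 2 fell on soy, and 4 rose and 3 fell on casein; the difference between the diets passed for 5 in the positive and 1 in the negative direction, with a median of 0.13. Sparcl1 (hevin, a relative of Sparc) rose on both diets, by 0.28 ± 0.09 on soy (adjusted p = 0.0278) and 0.62 ± 0.09 on casein (adjusted p = 1.17e-06). Fbln1 (fibulin 1) fell on both by 0.39 (adjusted p = 0.00327 on soy and 0.000415 on casein). Ccn4, of the same family as Ccn2, fell on soy by 0.34 ± 0.07 (adjusted p = 0.00125), and Fstl1 rose on casein by 0.34 ± 0.11 (adjusted p = 0.00888). Kera and Ccn4 were dim, with mean levels over all arrays of 3.64 and 4.38 against array medians of 6.11 to 6.22.

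Of 19 genes for fibrillar collagens and their assembly, 4 rose and 4 fell on soy, and 2 rose and 9 fell on casein, with a median of -0.16 there. Col5a1 (a chain of collagen V, which nucleates fibrils) changed by 0.17 ± 0.05 on soy (adjusted p = 0.0282) and -1.29 ± 0.05 on casein (adjusted p = 4.91e-17). P4ha2 (a prolyl hydroxylase) and Col6a2 fell on casein by 0.56 ± 0.07 (adjusted p = 2.16e-07) and 0.41 ± 0.09 (adjusted p = 0.000365), and Loxl1 (a lysyl oxidase) fell on soy by 0.39 ± 0.12 (adjusted p = 0.0194). Of 18 TGF-beta ligands, receptors, latency proteins and Smads, 2 rose and 1 fell on soy, and 5 rose and 4 fell on casein. The co-receptor gene Eng fell on casein by 0.68 ± 0.08 (adjusted p = 5.28e-08) and the latency protein gene Ltbp3 by 0.39 ± 0.06 (adjusted p = 3.72e-06), while the co-receptor gene Tgfbr3 rose by 0.29 ± 0.05 (adjusted p = 7.35e-05). The inhibitory Smad6 fell by 0.21 ± 0.07 on soy (adjusted p = 0.0239) and rose by 0.33 ± 0.06 on casein (adjusted p = 9.92e-05). Of 16 large proteoglycans and glycosaminoglycan-binding genes, none rose and 1 fell on soy, and 2 rose and 3 fell on casein. Hspg2 (perlecan) fell by 0.69 ± 0.09 and Gpc4 (glypican 4) by 0.52 ± 0.06, and Srgn (serglycin) rose by 0.60 ± 0.08 and Sdc4 (syndecan 4) by 0.51 ± 0.08, with adjusted p of at most 1.42e-05.

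Markers of the cell types that make these proteins, or that a ventricle sample could carry, were counted in the same way. Ventricular cardiomyocyte markers had log2 summed levels of 15.4 to 16.27, with Myl2 the brightest by its mean over all arrays. Of 11 markers 10 rose on soy, while 5 rose and 2 fell on casein. Of 17 fibroblast and epicardium markers, 1 rose and 4 fell on soy, and 4 rose and 3 fell on casein, where the median was -0.11. The 4 that rose on casein were Dpt (0.67), Serping1 (0.53), Tcf21 (0.46) and Pdgfra (0.18), and Ddr2, Fbln1 and Col3a1 fell, by 0.49, 0.39 and 0.29. The summed level of this list was 12.73 to 13.01 in casein wild-type and 12.68 to 13.09 in casein HCM arrays, so it overlapped between genotypes. Levels were summed before taking logs, so the brightest marker, Gsn, counted most. Gsn changed by 0.02 ± 0.10 on casein. Of 10 smooth muscle and pericyte markers, 3 rose and 1 fell on soy, and 5 rose and 2 fell on casein. Tagln rose most on casein (0.92 ± 0.07), and Notch3 and Mcam fell there, by 0.50 and 0.30. The summed level of that list ran from 11.04 to 11.38 in casein wild-type and from 11.3 to 11.75 in casein HCM arrays. Of 12 macrophage markers, 6 rose and 2 fell on casein. Lyz2 rose most (0.73 ± 0.17), and Csf1r and Itgam fell, by 0.30 and 0.20. Summed levels on casein were 11.18 to 11.31 in wild-type and 11.34 to 11.69 in HCM arrays, without overlap. In soy wild-type arrays they ran from 11.04 to 11.96. How often sums of other genes separate in this way was not counted. On soy 1 macrophage marker fell and none rose. Endothelial markers had 3 higher and 4 lower of 13 on casein and 3 higher on soy, and cartilage, tendon and valve markers 2 higher and 1 lower of 7 on casein and 1 lower on soy.

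Of 4 atrial markers, 3 rose on casein and 2 fell on soy. Myl7, the atrial myosin light chain, changed by 1.58 ± 0.34 on casein (adjusted p = 0.00037) and -1.32 ± 0.37 on soy (adjusted p = 0.0104), beside 1.71 and -0.33 for Ccn2 and 1.17 and -0.19 for Mgp, of which the soy values did not pass. The summed level of the atrial list ran from 9.21 to 9.98 in casein wild-type, 10.06 to 11.64 in casein HCM, 9.83 to 10.68 in soy wild-type and 9.67 to 10.17 in soy HCM arrays. The list includes Nppa, which stressed ventricle also expresses. On casein and soy Nppa changed by 0.98 and -0.06, of which the soy value did not pass. Myl4 changed by 0.39 and -0.32, and Sln by -0.02 and -0.06, neither of which passed for Sln. The part of atrial, smooth muscle or macrophage RNA in the casein result of Ccn2, Mgp, Lum, Dcn and Postn was not tested. None of the cell type lists had a marker that passed by sex in this count.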

How the data were processed

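The authors deposited 1 log2 value for each probe set and array. The submitters' processing notes name RMA and the Affymetrix Expression Console, without version or settings. RMA as commonly run corrects background, normalizes arrays by quantiles and summarises probes, which can compress differences. Scanner output was not used here, and detection was not called. Of 12488 probe sets 66 are controls. Of the other 12422, 10833 carried 1 gene symbol in the platform annotation, 396 several and 1193 none, and 0 symbols changed through the current gene table. 

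A limma model (R 4.3.3, limma 3.58.1, statmod 1.5.0) with a coefficient for each of the 8 groups was fitted to all 30 arrays and all 12422 probe sets (22 residual degrees of freedom and a prior of 5.86). All tests were two-sided and used Benjamini-Hochberg adjustment over all probe sets within a comparison with a threshold of 0.05. Effects on a diet, in a genotype or by sex are equally weighted means of group contrasts, errors are standard errors unless SD is stated, and intervals are at 95%. The scripts were tested on simulated data. The number of arrays limits the precision.

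The members, the lists and the comparisons were chosen with earlier results of these data known. Named genes were every member probe set, in each list at most the 4 genes of largest HCM effect among those that passed on either diet (fewer for marker lists), and the 3 genes most correlated with each member probe set; other names were chosen after their values were seen. The alternatives were 1 probe set per gene, leaving out the dimmest 40%, added quantile normalization, median centring, the replicate number as a block, a random block for array set, the casein wild-type replicates 1 and 2 or 3 and 4 alone, leaving out the casein HCM arrays, fitting only the groups compared, and leaving out each array. The array set as a fixed term and the correlations without male soy wild-type replicate 2 were added after seeing the data.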

Additional observations from a re-analysis of the deposited data

Results flagged for a closer look

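In 4 of 66 combinations of a member probe set and a group of 4 arrays, which share the same arrays, 1 array stood far from the other 3, measured as the gap to its nearest neighbour over the group's range; chance gives about 1 in 20. For Bgn 96049_at in female casein wild-type, replicate 2 read 10.39 and the others 10.33 to 10.34 (ratio 0.84). For Fmod 99152_at, male soy wild-type replicate 2 read 7.1 and the others 6.7 to 6.76 (0.84), and female casein HCM replicate 2 read 6.84 and the others 6.62 to 6.64 (0.94). For Smoc2 in female soy wild-type, replicate 3 read 7.66 and the others 7.34 to 7.39 (0.84).

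The HCM effect differed between the diets in limma for 5 probe sets, as the log2 effect on casein minus that on soy: 2.04 ± 0.21 for Ccn2, 1.36 ± 0.15 for Mgp, 0.63 ± 0.16 for Lum, 0.22 ± 0.08 for Fmod 99152_at and -0.69 ± 0.16 for Fmod 161373_r_at. With a random block for array set the differences of Lum (adjusted p = 0.0503) and Fmod 99152_at (0.231) did not pass. Diet and genotype coincide with sets of arrays, and their part in these differences cannot be told apart.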

How the results depend on the processing

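Over 11 other settings and 30 fits that each left out 1 array, 3374 of 3449 member values kept their direction or side of the threshold, 44 no longer passed, 30 newly passed and 1 reversed; 67 of the 3374 changed sign with neither value past the threshold. The reversed value was the diet effect on Dcn in HCM, -0.27 with quantile normalization added (adjusted p = 0.0236 in limma) against 0.14. With a random block for array set, which cannot separate sets from diet or genotype, the count of members past the threshold went from 2 to 0 for HCM on soy, from 8 to 5 for HCM on casein and from 5 to 3 for the difference between diets. With only the groups compared, the count on soy was 1, and between the casein wild-type sets it was 2 instead of 1. Leaving out each array gave 1 to 3 members for HCM on soy (the lowest on leaving out replicate 3 of female soy HCM, the highest on leaving out replicate 2 of male soy wild-type), 6 to 9 on casein, 4 to 7 for the difference between diets, 6 to 7 and 5 to 7 for diet in wild-type and HCM, 3 to 4 for sex, 0 for the difference between sexes and 1 between the sets. Counts over all probe sets moved by more than 1.5 times with the random block (343 on soy, 3395 on casein, 2616 between diets, 3122 for diet in wild-type), with 1 probe set per gene (3718 between diets, 1039 between sets), without the dimmest (3717 between diets, 4937 for diet in HCM, 1101 between sets), and with the casein wild-type replicates 1 and 2 only (19 by sex) or 3 and 4 only (2 for the difference between sexes). The fits with 1 probe set per gene (8251 genes) and without the dimmest 40% tested fewer features than the main fit (12422 probe sets). Their lower counts are therefore not lower shares in themselves. Leaving out single arrays gave 800 to 2783 between the sets and up to 3 for the difference between sexes.

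The replicate number as a block changed no call count of the members: 2 on soy, 8 on casein, 5 between diets, 0 between sexes, 6 and 5 for diet and 3 for sex. Deviations of arrays with the same number correlated at -0.031 to 0.019 on average, with values from -0.553 to 0.597. Whether arrays with the same number share a batch was not tested. The replicate block and random block were not run between the casein wild-type sets. Signal over background is unknown here, and array number limits small effects such as those of Fmod and Smoc2.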

Other observations

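Probe set names ending in _r_at, to which Fmod 161373_r_at belongs, included more large rises from soy to casein than others. Of 901 such probe sets, 5.33% were higher by at least 1 in log2 on casein than on soy in wild-type mice. The share was 0.104% of the 9614 probe sets whose name has no such letter. Falls of that size were not counted. The 3 probe sets closest to Fmod 161373_r_at over the arrays were also of this kind, while its levels correlated at -0.73 with those of the other Fmod probe set.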
